A study of Mus musculus with 17 samples.

Results

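Type I interferon-stimulated genes were described in the hippocampus of mice with and without a triplication of interferon receptor genes. The 48 genes were chosen by name from the 55385 genes of the deposited tables. Of these, 47 passed the filter on low counts. The exception was Oas3, with 0 to 16 counts per library.

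Interferons are secreted proteins that cells release on sensing foreign nucleic acid. Type I interferons bind the IFNAR1 and IFNAR2 receptor chains, and the attached kinases then activate a factor that contains STAT2 and IRF9 and binds the interferon-stimulated response element (ISRE) in the promoters of target genes. These targets encode sensors and inhibitors of viral RNA, a ubiquitin-like modifier and its enzymes, and feedback regulators, and in the brain microglia, endothelium and other cells express them at a low level without infection.

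RNA with a poly-A tail was sequenced from the hippocampus of 17 adult mice, 1 library per mouse, with no treatment. The controls were 6 wild-type C57BL/6J mice (WT, 3 females and 3 males, 17.1 to 18.0 weeks old). Dp16 mice (n = 6, 3 females and 3 males, 17.1 to 18.0 weeks) carry a duplication of a part of chromosome 16 that gives them an extra copy of the receptor genes Ifnar1, Ifnar2, Ifngr2 and Il10rb together with many other genes, among them Mx1 and Mx2. Dp16_2xIFNRs mice (n = 5, 3 females and 2 males, 17.7 to 18.0 weeks) carry the same duplication with the interferon receptor dosage brought back to normal. The other duplicated genes are therefore shared by both mutant groups, and the design compared the 3 genotypes. The labels for the mutant groups name no strain beyond the genotype and no littermates.

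The libraries held 30.4 to 33.1 M counts each (M, mega). Levels are given as CPM, counts per M counts of the scaled library. Hippocampal neuron markers summed to 3268 to 4897 CPM over all mice. In 3 libraries, 1 of each genotype (WT replicate 6, Dp16 replicate 6 and Dp16_2xIFNRs replicate 5), the 10 choroid plexus markers summed to 62.3, 68.8 and 104 CPM, against 2360 CPM or more in each other library. Results that moved without these libraries are given with both values.

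In Dp16 hippocampus most of the interferon-stimulated genes had slightly higher levels than in WT, and none passed the test as a single gene. The fold change was above 0 for 44 of 47 genes, while 48.1% of all 18983 tested genes were above 0. The median log2 fold change was 0.26, against -0.01 over all tested genes. Of the 47 genes, 0 were called by edgeR at an adjusted p under 0.05, where 0.458% of all tested genes were called higher and 0.079% lower. DESeq2 also called 0. At an unadjusted p under 0.05, 16 genes were higher and 0 lower (5.61% of all genes were higher). The genes covary between mice, so these counts do not stand for independent observations.

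Single libraries carried much of that count. It was 5 without Dp16 replicate 2, 8 without Dp16 replicate 5 and 10 without either WT replicate 1 or WT replicate 2. It was 4 when the series of the mouse identifiers, whose meaning the labels do not give, was added to the model. One of the 3 identifier series holds only Dp16 replicates 2 and 4, so this series and the genotype cannot be told apart in those mice. The median log2 fold change lay between 0.17 and 0.35 when each library was left out in turn, lowest without Dp16 replicate 2.

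With the receptor dosage brought back to normal, most of the same genes again had slightly higher levels than in WT. In Dp16_2xIFNRs against WT, 43 of 47 genes had a fold change above 0 (51.1% of all tested genes did), with a median log2 fold change of 0.34 against 0.00 over all genes. Mx2 was called higher by edgeR and 0 genes were called lower (0.637% of all tested genes were called higher and 0.342% lower). DESeq2 called 4 genes, and edgeR called 0 with the replicate block, with the identifier series, without the 3 libraries low in choroid plexus markers or without 1 of 11 single libraries. At an unadjusted p under 0.05, 13 genes were higher (8.44% of all genes) and 0 lower. That count was 8 without Dp16_2xIFNRs replicate 5 or without WT replicate 1, 20 without WT replicate 3, and 6 without the 3 libraries low in choroid plexus markers.

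The mutant groups were compared directly. In Dp16_2xIFNRs against Dp16, 21 of 47 genes were above 0 (47.9% of all genes), and the median log2 fold change was -0.01, as over all tested genes. edgeR called 0 genes in either direction (0.0158% of all tested genes were called lower), and DESeq2 called 0. At an unadjusted p under 0.05, 3 genes were higher, namely Stat2, Ifit1 and Parp12, and 0 were lower (6.99% of all genes were higher and 3.48% lower). That count was 0 without Dp16 replicate 1, without Dp16_2xIFNRs replicate 3 or without Dp16_2xIFNRs replicate 4, and 1 without Dp16 replicate 5 or 6 or without Dp16_2xIFNRs replicate 2 or 5. The median was 0.11 without Dp16 replicate 2 and 0.15 with the identifier series in the model. The WT mice are shared by the comparisons with WT, and each mutant group also enters the direct comparison, so the 3 sets of fold changes are not independent.

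**Figure D1:**
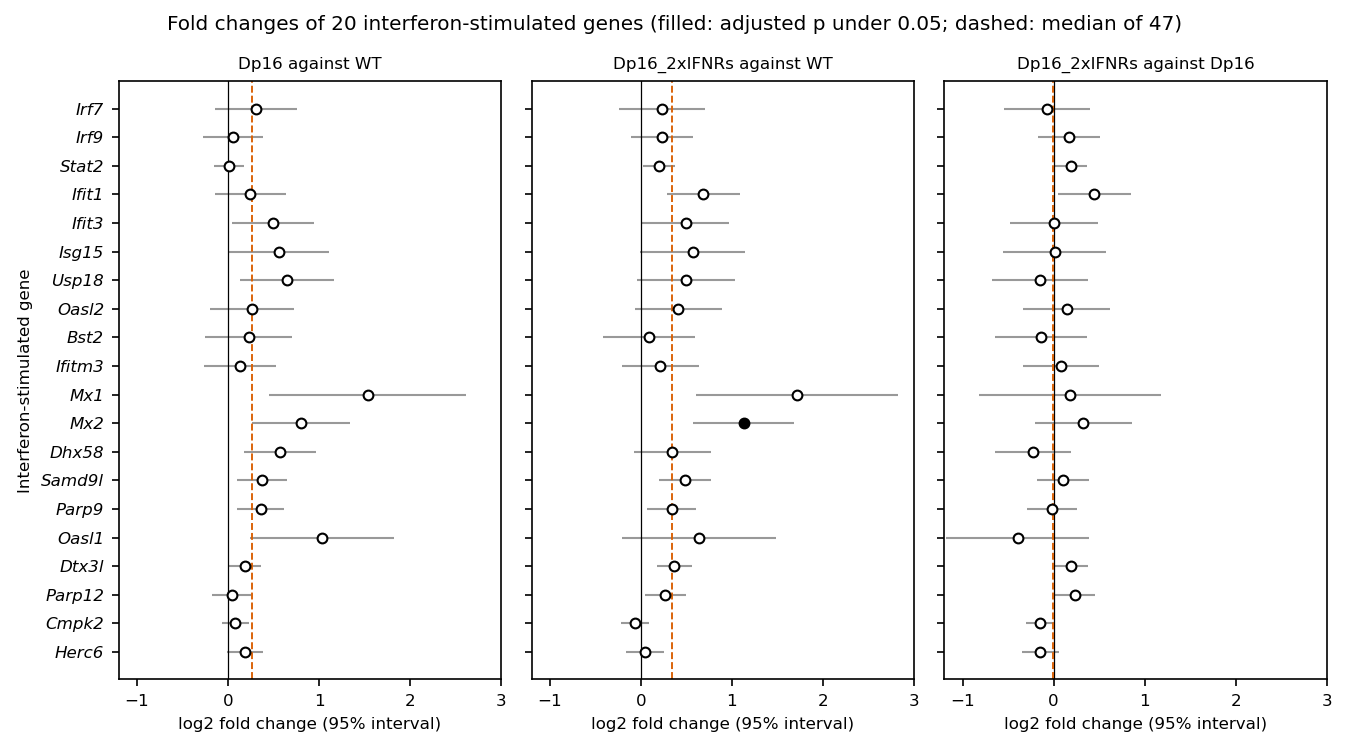
log2 fold change (horizontal axis) of 20 interferon-stimulated genes (vertical axis) in the 3 comparisons, with 95% intervals from the edgeR fit; filled points have an adjusted p under 0.05 and the dashed line is the median of all 47 genes. The filled point is Mx2 in Dp16_2xIFNRs against WT, and the medians are 0.26, 0.34 and -0.01.

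Individual mice differed widely within each group. The mean over the 47 genes of each mouse's log2 CPM minus the WT mean was used as the level per mouse. It was 0.00 ± 0.25 (SD, n = 6) in WT, with a range from -0.28 to 0.41. In Dp16 it was 0.33 ± 0.28 (n = 6), with a range from 0.07 to 0.84. In Dp16_2xIFNRs it was 0.37 ± 0.22 (n = 5), with values of 0.60, 0.33, 0.34, 0.04 and 0.54. The groups overlapped. The difference between each mutant group and WT was somewhat above the SD between mice and below the range within each group.

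Dp16 replicate 2 stood highest of the 17 mice, above the WT mean in 46 of 47 genes and the highest of all mice in 28 of them. The next highest were Dp16_2xIFNRs replicate 1 (0.60), Dp16_2xIFNRs replicate 5 (0.54) and WT replicate 3 (0.41), so each genotype had at least 1 mouse among the 4 highest. WT replicate 3 was the highest WT mouse in 30 genes. All 4 were females. WT replicate 6, a male and one of the libraries low in choroid plexus markers, stood lowest at -0.28.

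**Figure D2:**
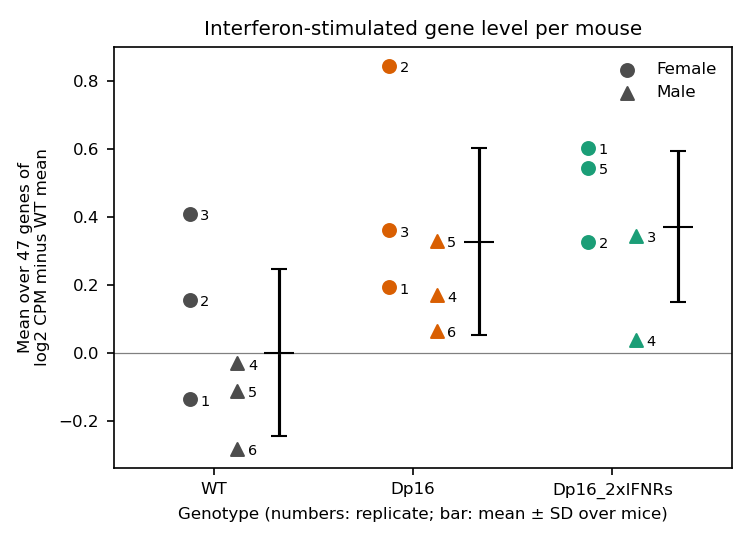
Mean over 47 interferon-stimulated genes of log2 CPM minus the WT mean (vertical axis) for each mouse by genotype (horizontal axis); circles are females, triangles males, numbers are replicates, and bars show the mean ± SD over mice. Values run from -0.28 in WT replicate 6 to 0.84 in Dp16 replicate 2, and the 3 groups overlap.

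**Figure D3:**
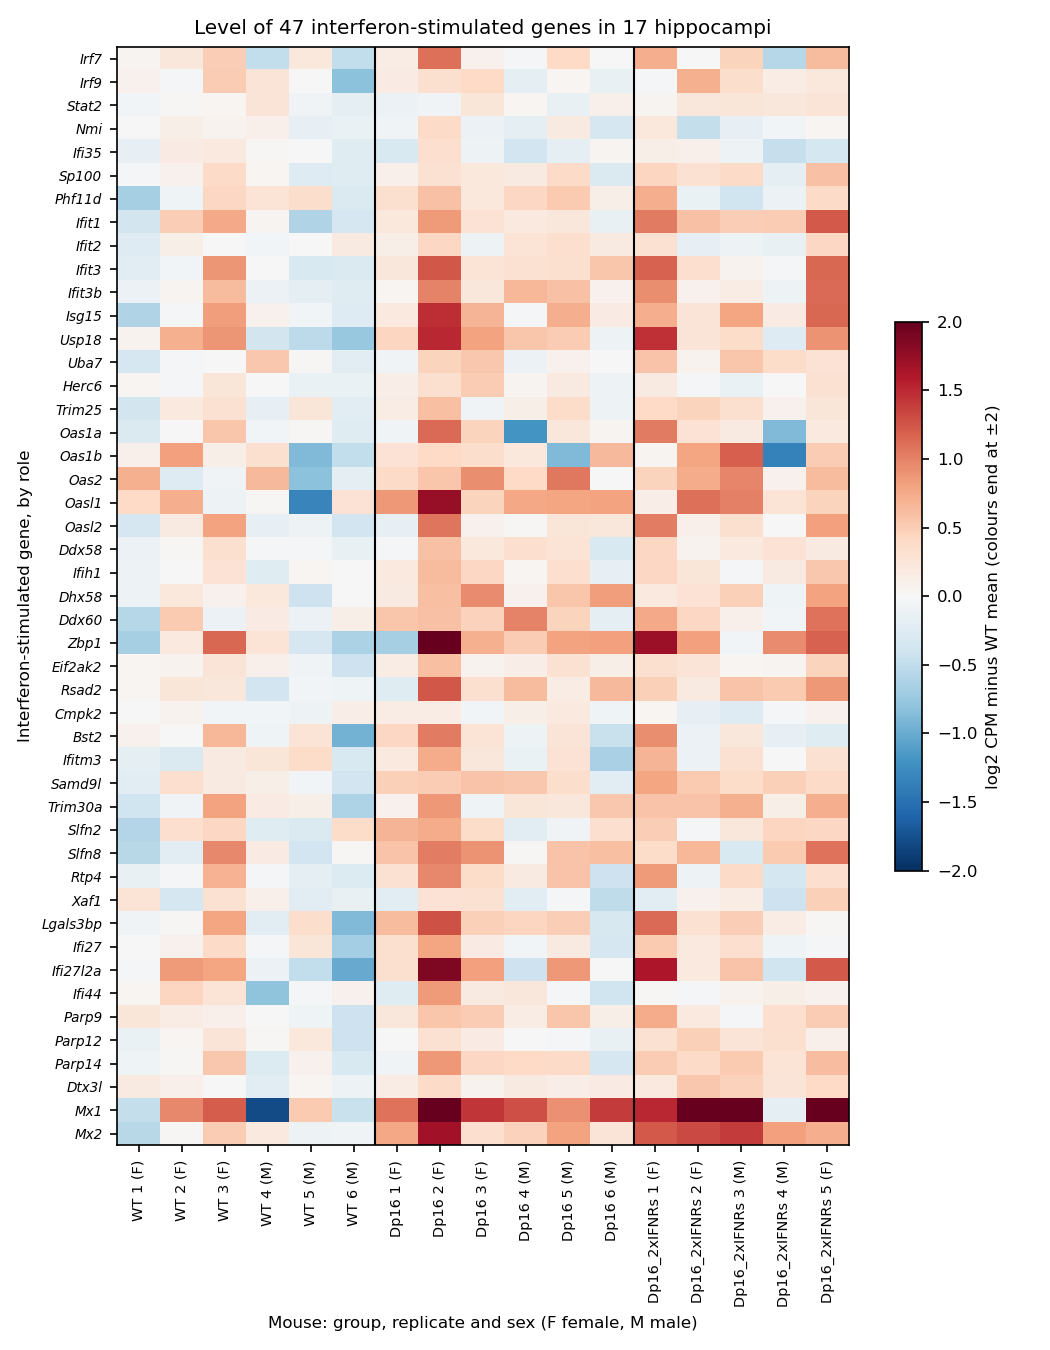
log2 CPM minus the WT mean for 47 interferon-stimulated genes (rows, ordered by role) in 17 mice (columns, by genotype, replicate and sex), with colours ending at a difference of 2 either way. Dp16 replicate 2 is above the WT mean in 46 of 47 genes, and the bottom rows, Mx1 and Mx2, are above it in most mutant mice.

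The genes moved together from mouse to mouse. After the genotype and sex effects were removed, the median Pearson r over the 1081 pairs of the 47 genes was 0.31, with quartiles of 0.09 and 0.53. Of these pairs, 82.8% had an r above 0 and 29.9% had an r above 0.5. Over all pairs of the 18812 tested genes with a level at or above the lowest of the 47, the median r was -0.00, with 49.7% above 0 and 7.76% above 0.5. These are descriptions over the same 17 libraries. Without Dp16 replicate 2 the median r of the 1081 pairs was 0.25.

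Oasl2 and Isg15 followed the other genes most closely, each with an r of 0.90 with the mean of the other 46. Next came Ifi27l2a (0.86), a mitochondrial membrane protein, Usp18 (0.85), Rtp4 (0.84), a receptor chaperone, and Irf7 (0.78). In all, 16 genes had an r of at least 0.7. At the other end 6 genes had an r under 0.1, namely Oas1b (0.05), Dtx3l (0.04), Oas2 (0.04), Cmpk2 (0.03), Oasl1 (0.03) and Stat2 (0.00). Of these 6, Oasl1, Oas1b and Oas2 were scarce, with 161, 227 and 452 counts over the 17 libraries, and Dtx3l, Cmpk2 and Stat2 had 4025, 12731 and 13919 counts. The part of the counting error in these values was not tested. Bst2 and Lgals3bp were the closest to each other of the pairs with Bst2, at an r of 0.97, and Bst2 and Ifi27 had an r of 0.95. Bst2, Lgals3bp and Ifi27 were all low in the 3 libraries low in choroid plexus markers. In WT replicate 6, Dp16 replicate 6 and Dp16_2xIFNRs replicate 5, the log2 residuals of Bst2 were -0.71, -0.46 and -0.55. Those of Lgals3bp were -0.66, -0.59 and -0.58, and those of Ifi27 were -0.52, -0.36 and -0.34. The part of these libraries in the r values was not tested.

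Pairs named for their shared biology were tested one by one. Of 14 listed pairs, 13 could be tested, since Oas3 is in the other. A two-sided permutation test with Benjamini-Hochberg adjustment over the 13 pairs was run on the same 17 mice. It gave 7 pairs with an adjusted p under 0.05 for both Pearson's r and Spearman's rho. The permuted values had genotype and sex removed, which leaves 13 residual degrees of freedom. Permutation takes them as freely exchangeable, so these p-values may be too small. Irf7 and Oasl2 had an r of 0.80 (permutation adjusted p = 0.000477) and a rho of 0.80 (permutation adjusted p = 0.00113). Without the 2 mice farthest from the median of Irf7 the r was 0.79. Isg15 and its protease Usp18 had an r of 0.66 (permutation adjusted p = 0.00925) and a rho of 0.67 (0.0101), and 0.60 without the 2 extreme mice. The RNA sensors Ddx58 and Ifih1 had an r of 0.68 (permutation adjusted p = 0.00598) and a rho of 0.66 (0.0101), and 0.49 without 2 mice.

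The membrane proteins Bst2 and Ifitm3 had an r of 0.80 (permutation adjusted p = 0.00026) and a rho of 0.83 (0.00026), and 0.81 without 2 mice. Ifit1 and Ifit3 had an r of 0.72 (permutation adjusted p = 0.005) and a rho of 0.76 (0.00266), and 0.60 without 2 mice. Irf7 and Ifit3 had an r of 0.61 (permutation adjusted p = 0.021) and a rho of 0.60 (0.0232), and 0.65 without 2 mice. Ifit3 and Ifit3b had an r of 0.85 (permutation adjusted p = 0.00026), but these genes share 869 of the 50-base stretches of their transcripts, 51.2% of those of Ifit3 and 44.5% of those of Ifit3b, and the counting may have split or lost such reads. Other pairs that share a locus or a protein complex did not pass both tests. Stat2 and Irf9, partners in the ISRE-binding factor, had an r of 0.56 (permutation adjusted p = 0.0338) but a rho of 0.39 (0.156). The neighbours Rsad2 and Cmpk2 had an r of 0.06 (permutation adjusted p = 0.815), and Parp9 and Dtx3l, whose proteins form a complex, had an r of -0.30 (permutation adjusted p = 0.279). Oas1a and Oas1b (0.10), Mx1 and Mx2 (0.39) and Slfn2 and Slfn8 (0.46) did not pass either test.

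**Figure D4:**
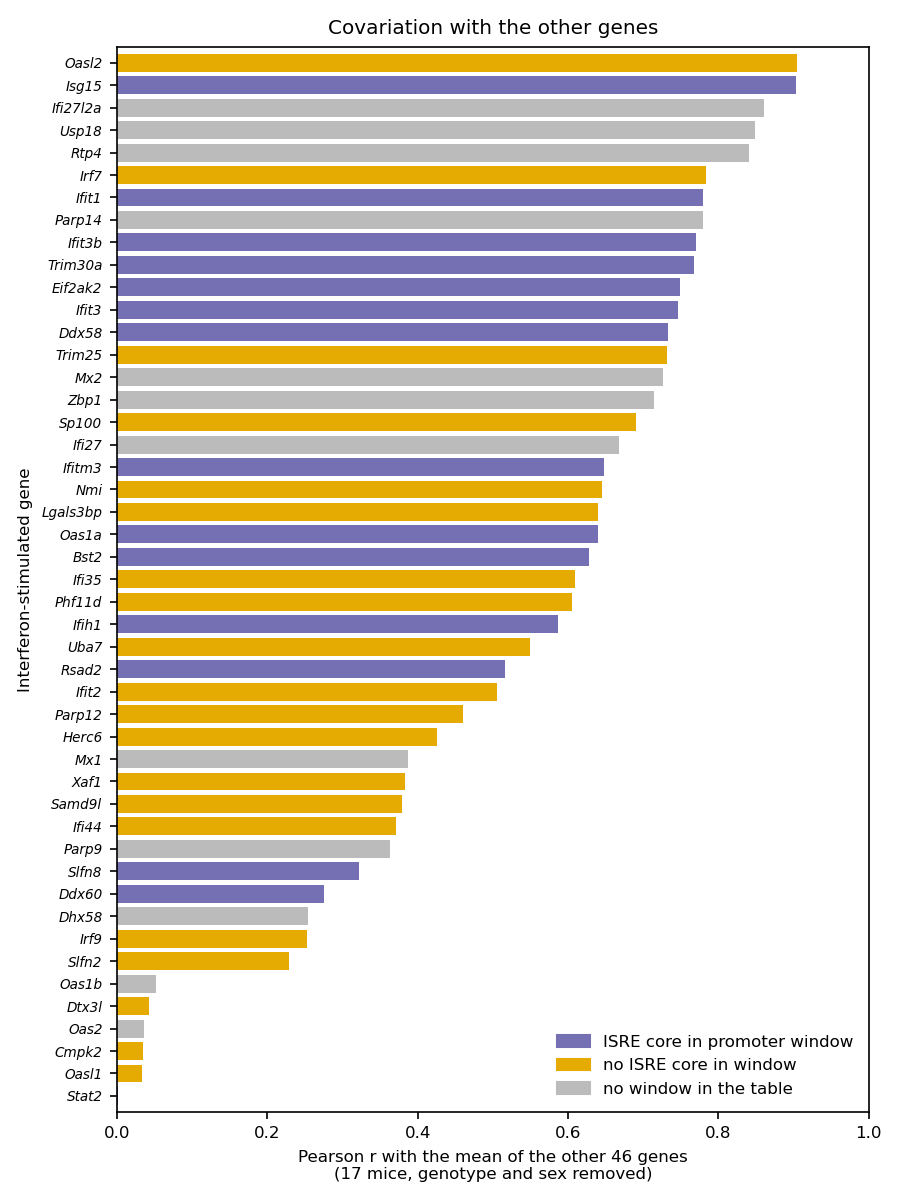
Pearson r (horizontal axis) between each interferon-stimulated gene (vertical axis) and the mean of the other 46 over 17 mice, genotype and sex removed; colours show whether the promoter window holds the ISRE core, does not hold it, or is not in the table. Oasl2 and Isg15 are at 0.90 and Stat2 is at 0.00, and both colours of promoter lie along the whole range.

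The promoter letters of 6 genes picked along that order are shown, because the ISRE is the element through which these genes are known to respond. Promoter windows of 250 bases before to 50 bases after the gene start, from RefSeq on GRCm38.p6, were matched by symbol for 36 of the 48 genes. The ISRE core was searched as GAAANNGAAA, where N is any base, on both strands. It was in the windows of 16 of these 36 genes (44.4%), against 1079 of 27025 genes in the whole table (3.99%). The core of a second interferon-responsive element, the gamma-activated sequence, searched as TTCNNNGAA, was in 6 of the 36 (16.7%), against 9.55% of all genes. The 250 bases before the start follow for 6 genes, 5′ to 3′ on the gene's strand, with the ISRE core and its overlapping repeats in capitals (TTTCNNTTTC where it lies on the other strand). Isg15, Oasl2, Ifit3 and Ifit3b are shown as genes that followed the rest, Bst2 for its close partners, and Stat2 as the gene that followed the rest least. Most of the printed windows hold the core, so they do not stand for the 36 genes. The windows of Irf7 (r of 0.78), Dtx3l (0.04), Cmpk2 (0.03) and Oasl1 (0.03) hold no core and are not printed.
Isg15, chr4:156200819-156201068, minus strand: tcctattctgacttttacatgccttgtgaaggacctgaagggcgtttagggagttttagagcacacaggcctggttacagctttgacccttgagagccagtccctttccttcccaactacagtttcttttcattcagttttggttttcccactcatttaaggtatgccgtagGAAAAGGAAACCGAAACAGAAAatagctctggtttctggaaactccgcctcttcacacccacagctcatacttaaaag
Ifit3, chr19:34583279-34583528, plus strand: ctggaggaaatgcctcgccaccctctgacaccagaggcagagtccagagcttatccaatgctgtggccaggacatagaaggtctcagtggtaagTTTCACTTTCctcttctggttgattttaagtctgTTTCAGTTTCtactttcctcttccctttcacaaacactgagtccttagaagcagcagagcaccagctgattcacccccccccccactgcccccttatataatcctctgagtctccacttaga
Ifit3b, chr19:34607707-34607956, plus strand: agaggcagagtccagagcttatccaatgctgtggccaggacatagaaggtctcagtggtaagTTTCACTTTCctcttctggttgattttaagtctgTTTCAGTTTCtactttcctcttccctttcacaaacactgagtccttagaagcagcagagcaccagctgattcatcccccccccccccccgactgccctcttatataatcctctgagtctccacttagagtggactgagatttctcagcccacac
Bst2, chr8:71537473-71537722, minus strand: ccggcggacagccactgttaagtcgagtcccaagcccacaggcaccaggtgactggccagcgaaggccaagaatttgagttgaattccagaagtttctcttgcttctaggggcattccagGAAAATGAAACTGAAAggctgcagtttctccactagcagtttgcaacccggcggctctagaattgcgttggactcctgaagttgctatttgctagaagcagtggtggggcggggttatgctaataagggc
Stat2, chr10:128270248-128270497, plus strand: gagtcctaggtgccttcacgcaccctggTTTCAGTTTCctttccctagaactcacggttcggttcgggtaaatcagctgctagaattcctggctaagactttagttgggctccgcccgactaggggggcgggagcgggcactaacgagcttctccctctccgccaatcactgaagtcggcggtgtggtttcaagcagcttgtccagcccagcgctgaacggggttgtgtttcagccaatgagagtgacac
Oasl2, chr5:114896684-114896933, plus strand: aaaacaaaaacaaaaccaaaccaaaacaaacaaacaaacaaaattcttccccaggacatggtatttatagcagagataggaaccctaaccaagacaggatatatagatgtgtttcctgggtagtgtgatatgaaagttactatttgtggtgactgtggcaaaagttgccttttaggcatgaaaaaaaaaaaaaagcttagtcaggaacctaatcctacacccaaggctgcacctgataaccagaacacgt

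In Isg15 there are 3 overlapping matches that begin 78, 72 and 66 bases before the start, and in Bst2 there are 2, at 130 and 124 bases. Ifit3 has 2 separate matches at 156 and 122 bases, and Ifit3b has 2 at 188 and 154. Stat2 has 1 match at 222 bases. No match lies in the window of Oasl2, which says only that these letters are not in these bases. The median r with the mean of the other genes was 0.65 over the 15 tested genes with the core (0.00 to 0.90). It was 0.48 over the 20 without the core (0.03 to 0.90), so the ranges overlapped over nearly their whole length. An r of at least 0.7 was found for 7 of the 15 and for 3 of the 20. The difference was not tested.

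Compared per length of transcript, as RPKM (the deposited reads per kilobase and M reads), the genes spanned a wide range. Ifi27, a membrane protein of mitochondria, was highest with a mean of 42.2 RPKM over all mice, followed by Ifitm3 (13.2), Lgals3bp (10.8), Bst2 (9.64), Cmpk2 (7.35) and Stat2 (5.86). The lowest were Oas3 (0.0274), Zbp1 (0.123), Oasl1 (0.135) and Mx1 (0.144). The median gene was at 1.30 RPKM, and 32 of 48 genes had a mean of at least 1 RPKM.

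Among the 7 factors of transcription and their partners, 5 had a fold change above 0 in each comparison with WT, with medians of 0.06 in Dp16 and 0.20 in Dp16_2xIFNRs. Irf7 (chr7:141262706-141266481), the factor that amplifies interferon production, had a WT range of 1.85 to 3.73 CPM with a median of 2.88. In Dp16 Irf7 ran from 2.55 to 5.72 CPM with a median of 2.85, and the Dp16_2xIFNRs mice had 4.40, 2.61, 3.59, 1.75 and 4.11 CPM. The groups overlapped, and only Dp16 replicate 2 and 2 Dp16_2xIFNRs mice exceeded the highest WT mouse. For Irf7 the fold change on the log2 scale was 0.31 ± 0.22 (SE) in Dp16 (edgeR adjusted p = 0.691) and 0.23 ± 0.23 in Dp16_2xIFNRs (adjusted p = 0.632). Its exons overlap those of Phrf1 on the other strand.

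Stat2 (chr10:128270559-128292849) showed another pattern, with a higher level in Dp16_2xIFNRs than in either other group. It had 21.6 to 29.2 CPM in WT (median 24.3), 22.1 to 29.2 CPM in Dp16 (median 24.3), and 25.5, 28.8, 29.1, 28.7 and 29.3 CPM in Dp16_2xIFNRs. All 5 Dp16_2xIFNRs mice were above the mean of WT and above that of Dp16, within ranges that overlapped. The log2 fold change was 0.01 ± 0.08 in Dp16 against WT (edgeR adjusted p = 0.986), 0.20 ± 0.08 in Dp16_2xIFNRs against WT (adjusted p = 0.23) and 0.19 ± 0.08 between the mutant groups (adjusted p = 0.447). Irf9 (chr14:55603571-55610030), the DNA-binding partner of STAT2, had 5.31 to 13.4 CPM in WT (median 9.65) and 8.32 to 12.4 CPM in Dp16 (median 10.1). The Dp16_2xIFNRs mice had 9.22, 15.5, 12, 10.4 and 10.8 CPM of Irf9, so that the groups overlapped. Its log2 fold changes against WT were 0.06 ± 0.16 and 0.23 ± 0.16 (adjusted p = 0.932 and 0.488). Ifi35 and Nmi, which bind each other, were 2 of the few genes with fold changes below 0 against WT, at -0.09 and -0.01 in Dp16 and -0.16 and -0.09 in Dp16_2xIFNRs. The nuclear body gene Sp100 had 0.16 and 0.29, and Phf11d had 0.35 and 0.09.

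The 4 IFIT genes encode proteins that bind foreign RNA. All 4 had fold changes above 0 in both comparisons with WT, with medians of 0.36 in Dp16 and 0.47 in Dp16_2xIFNRs. At an unadjusted p under 0.05, 2 of 4 were higher in each. Of all tested genes, 5.61% were in Dp16 and 8.44% in Dp16_2xIFNRs. The IFIT genes lie side by side on chromosome 19 and were the most tightly linked role group, with a median r of 0.74 between its members. Ifit1 (chr19:34640871-34650009) had 1.83 to 4.82 CPM in WT (median 2.57) and 2.54 to 5.15 CPM in Dp16 (median 3.29). In Dp16_2xIFNRs Ifit1 stood at 5.85, 4.25, 3.97, 4.04 and 6.64 CPM. All 5 of these exceeded the WT mean of 2.99 CPM, and 2 exceeded every WT mouse. On the log2 scale, Ifit1 had a fold change of 0.24 ± 0.19 in Dp16 (edgeR adjusted p = 0.718), 0.69 ± 0.19 in Dp16_2xIFNRs against WT (adjusted p = 0.0922) and 0.45 ± 0.19 in Dp16_2xIFNRs against Dp16 (adjusted p = 0.448).

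Ifit3 (chr19:34583531-34588731) was split between single high mice and the rest. WT mice had 5.13 to 11.8 CPM (median 5.78), Dp16 mice 7.5 to 15.1 CPM (median 7.95), and Dp16_2xIFNRs mice 14.5, 8.09, 6.70, 6.23 and 14.3 CPM. WT replicate 3, Dp16 replicate 2 and Dp16_2xIFNRs replicates 1 and 5 were the high mice, and the other mice of all groups lay at 9.43 CPM or less. The log2 fold change was 0.49 ± 0.21 in Dp16 (edgeR adjusted p = 0.489), 0.49 ± 0.23 in Dp16_2xIFNRs (adjusted p = 0.275) and 0.00 ± 0.23 between the mutant groups (adjusted p = 0.999). Ifit3b and Ifit2 had log2 fold changes of 0.47 and 0.21 in Dp16 and of 0.45 and 0.08 in Dp16_2xIFNRs.

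ISG15 is a ubiquitin-like protein that is attached to other proteins, and the 5 genes of its conjugation had medians of 0.19 in Dp16 and 0.36 in Dp16_2xIFNRs, with all 5 above 0 in both. Isg15 itself (chr4:156199424-156200818) had 0.896 to 2.54 CPM in WT (median 1.35) and 1.37 to 3.96 CPM in Dp16 (median 1.93). The Dp16_2xIFNRs mice had 2.33, 1.67, 2.44, 1.56 and 3.14 CPM. All 5 of them and 5 of 6 Dp16 mice were above the WT mean, and the ranges overlapped. Its log2 fold change was 0.56 ± 0.26 in Dp16 (edgeR adjusted p = 0.512) and 0.57 ± 0.28 in Dp16_2xIFNRs (adjusted p = 0.297), and 0.01 ± 0.27 between the mutant groups (adjusted p = 0.991).

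Usp18 (chr6:121245906-121270917), which removes ISG15 and restrains the type I receptor, had 0.703 to 2.32 CPM in WT (median 1.12), 1.14 to 3.61 CPM in Dp16 (median 1.81), and 3.49, 1.48, 1.62, 1.02 and 2.34 CPM in Dp16_2xIFNRs. The highest mouse of each mutant group was a female and exceeded every WT mouse, and the ranges overlapped. On the log2 scale, Usp18 had a fold change of 0.65 ± 0.25 in Dp16 (edgeR adjusted p = 0.407) and 0.50 ± 0.26 in Dp16_2xIFNRs (adjusted p = 0.331). Herc6 (chr6:57581000-57664632), an ISG15 ligase of the mouse, was steadier, with 5.00 to 6.48 CPM in WT (median 5.48), 5.11 to 7.84 CPM in Dp16 (median 6.15), and 6.24, 5.35, 4.98, 5.5 and 6.83 CPM in Dp16_2xIFNRs. The groups overlapped, with log2 fold changes of 0.19 ± 0.09 in Dp16 (adjusted p = 0.532) and 0.04 ± 0.10 in Dp16_2xIFNRs (adjusted p = 0.863). Trim25 and Uba7, the activating enzyme of ISG15, had log2 fold changes of 0.18 and 0.14 in Dp16 and of 0.27 and 0.36 in Dp16_2xIFNRs.

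The OAS genes encode synthetases that activate the RNA-degrading enzyme RNase L, and their relatives. The 5 tested had fold changes above 0 in both comparisons with WT, with medians of 0.26 and 0.41. At an unadjusted p under 0.05, 1 was higher in Dp16 (5.61% of all tested genes) and 0 in Dp16_2xIFNRs (8.44%). Oasl2 (chr5:114896936-114912234), the gene that followed the others most closely and whose printed promoter holds no ISRE core, had 2.81 to 6.48 CPM in WT (median 3.37) and 3.27 to 7.85 CPM in Dp16 (median 4.12). The Dp16_2xIFNRs mice had 7.57, 3.97, 4.63, 3.65 and 6.58 CPM. Single mice were high in every group and the ranges overlapped. Its log2 fold change was 0.26 ± 0.22 in Dp16 (edgeR adjusted p = 0.743) and 0.41 ± 0.23 in Dp16_2xIFNRs (adjusted p = 0.366).

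Oasl1 (chr5:114923240-114937915) is its neighbour and was scarce, with 0.0311 to 0.326 CPM in WT (median 0.200), 0.259 to 0.722 CPM in Dp16 (median 0.346), and 0.194, 0.441, 0.413, 0.222 and 0.257 CPM in Dp16_2xIFNRs. All 6 Dp16 mice and all 5 Dp16_2xIFNRs mice were above the WT mean of 0.193 CPM, and both groups overlapped WT. The log2 fold change was 1.04 ± 0.38 in Dp16 (edgeR adjusted p = 0.374) and 0.64 ± 0.40 in Dp16_2xIFNRs (adjusted p = 0.427). Oas1a, Oas1b and Oas2 had log2 fold changes of 0.20, 0.18 and 0.54 in Dp16 and of 0.18, 0.39 and 0.54 in Dp16_2xIFNRs. Oas3 was not tested, with medians of 0, 0.0793 and 0.317 CPM in WT, Dp16 and Dp16_2xIFNRs. At most 4 counts of Oas3 were seen in a WT library, 9 in a Dp16 library and 16 in a Dp16_2xIFNRs library.

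The 6 sensors of nucleic acid had fold changes above 0 in both comparisons with WT, with medians of 0.37 and 0.29. At an unadjusted p under 0.05, 4 of 6 were higher in Dp16 (5.61% of all tested genes) and 0 of 6 in Dp16_2xIFNRs (8.44%). Whether the mutant groups differ in this is the direct comparison, where the median was -0.02. There 0 of 6 had an unadjusted p under 0.05 (6.99% of all tested genes were higher and 3.48% lower). Dhx58 (chr11:100694884-100704271), a regulator of the RNA sensors, had 0.932 to 1.47 CPM in WT (median 1.30) and 1.34 to 2.49 CPM in Dp16 (median 1.91). In Dp16_2xIFNRs the 5 mice had 1.46, 1.54, 1.78, 1.18 and 2.25 CPM. All 6 Dp16 mice were above the WT mean of 1.27 CPM, and the groups overlapped. The log2 fold change was 0.57 ± 0.19 in Dp16 (edgeR adjusted p = 0.304), 0.35 ± 0.20 in Dp16_2xIFNRs (adjusted p = 0.387) and -0.23 ± 0.20 between the mutant groups (adjusted p = 0.679). The antisense gene Dhx58os overlaps it. Ddx58 and Ifih1, the cytoplasmic RNA sensors RIG-I and MDA5, had log2 fold changes of 0.20 and 0.25 in Dp16 and of 0.22 and 0.24 in Dp16_2xIFNRs. Ddx60 had 0.50 and 0.46, and Eif2ak2, the RNA-activated kinase PKR, had 0.23 and 0.20. The sensor of Z-form nucleic acid, Zbp1, had log2 fold changes of 1.01 and 1.02 at a mean of only 0.266 CPM.

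Of 11 other antiviral effectors, 10 had a fold change above 0 in Dp16 and 9 in Dp16_2xIFNRs, with medians of 0.29 and 0.26. At an unadjusted p under 0.05, 3 were higher in each (5.61% of all tested genes in Dp16 and 8.44% in Dp16_2xIFNRs). Samd9l (chr6:3372257-3399572), which restricts viral protein synthesis, had 3.42 to 5.67 CPM in WT (median 4.58) and 3.84 to 6.67 CPM in Dp16 (median 6.34). The Dp16_2xIFNRs mice had 7.76, 6.42, 5.78, 6.26 and 5.87 CPM, all above the highest WT mouse. It is 1 of 3 genes of the 47 for which the lowest Dp16_2xIFNRs mouse exceeded the highest WT mouse, with Dtx3l and Mx2 (1.2% of all tested genes did so). For Dp16 against WT there were 0 such genes (0.716% of all tested genes). For Samd9l the fold change on the log2 scale was 0.38 ± 0.13 in Dp16 (edgeR adjusted p = 0.329) and 0.48 ± 0.14 in Dp16_2xIFNRs (adjusted p = 0.0968).

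Bst2 (chr8:71534255-71537456), which tethers virus particles to the cell membrane, had 3.42 to 10.5 CPM in WT (median 6.85), 4.86 to 13.8 CPM in Dp16 (median 7.97), and 12.7, 6.14, 7.77, 5.94 and 5.61 CPM in Dp16_2xIFNRs. Only 2 of 5 Dp16_2xIFNRs mice were above the WT mean. For Bst2 the fold change on the log2 scale was 0.23 ± 0.23 in Dp16 (edgeR adjusted p = 0.8) and 0.09 ± 0.24 in Dp16_2xIFNRs (adjusted p = 0.883), where it was -0.10 without Dp16_2xIFNRs replicate 1. Ifitm3 (chr7:141009586-141010770), which hinders fusion of viruses with endosomes, had 6.52 to 10.4 CPM in WT (median 8.03), 5.08 to 13.5 CPM in Dp16 (median 9.30), and 12.9, 7.40, 9.93, 8.10 and 9.94 CPM in Dp16_2xIFNRs. The WT range lay within that of Dp16, and the log2 fold changes were 0.13 ± 0.19 and 0.22 ± 0.20 (adjusted p = 0.874 and 0.616).

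Cmpk2 (chr12:26469204-26479837), a mitochondrial nucleotide kinase, varied little, with 21.8 to 25.4 CPM in WT (median 22.9), 22.1 to 26.8 CPM in Dp16 (median 25.6), and 23.9, 20.9, 19.4, 23.0 and 24.9 CPM in Dp16_2xIFNRs. Its log2 fold changes were 0.08 ± 0.07, -0.06 ± 0.07 and, between the mutant groups, -0.15 ± 0.07 (edgeR adjusted p = 0.753, 0.695 and 0.493). Rsad2, its neighbour, which encodes the antiviral enzyme viperin, had log2 fold changes of 0.54 and 0.53 against WT. The remaining effectors, Trim30a, Slfn2, Slfn8, Rtp4, Xaf1 and Lgals3bp, had log2 fold changes of -0.06 to 0.57 in Dp16 and of -0.00 to 0.48 in Dp16_2xIFNRs. Among the small mitochondrial proteins and Ifi44, Ifi27l2a had the largest fold changes, 0.67 and 0.62, and Ifi27 and Ifi44 had 0.17 and 0.12 in Dp16 and 0.15 and 0.00 in Dp16_2xIFNRs.

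The 4 genes of the PARP9 group encode ADP-ribosylating enzymes and the ubiquitin ligase DTX3L, and all 4 had an unadjusted p under 0.05 and a higher level in Dp16_2xIFNRs than in WT, with a median log2 fold change of 0.35 (8.44% of all tested genes had such a p and a higher level). In Dp16 2 of 4 did, with a median of 0.24 (5.61% of all tested genes). At an adjusted p under 0.05, edgeR called 0 of the 4 in either comparison. Dtx3l (chr16:35926511-35939151) had 5.64 to 7.45 CPM in WT (median 6.63), 6.90 to 8.57 CPM in Dp16 (median 7.31), and 7.47, 9.57, 9.08, 7.85 and 8.69 CPM in Dp16_2xIFNRs. No Dp16_2xIFNRs mouse overlapped WT, although the lowest exceeded the highest WT mouse only narrowly. On the log2 scale, Dtx3l had a fold change of 0.18 ± 0.09 in Dp16 (edgeR adjusted p = 0.518), 0.37 ± 0.09 in Dp16_2xIFNRs against WT (adjusted p = 0.0572) and 0.19 ± 0.09 between the mutant groups (adjusted p = 0.478).

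Parp9 (chr16:35938470-35972605), the partner of DTX3L, had 2.75 to 4.36 CPM in WT (median 3.84), 4.00 to 5.46 CPM in Dp16 (median 4.78), and 6.18, 4.22, 3.62, 4.67 and 5.29 CPM in Dp16_2xIFNRs. All 6 Dp16 mice were above the WT mean of 3.72 CPM and overlapped the WT range. Its log2 fold changes against WT were 0.36 ± 0.12 and 0.34 ± 0.13 (edgeR adjusted p = 0.333 and 0.204). Parp9 and Dtx3l lie on opposite strands of chromosome 16, outside the duplicated segment, and their exons overlap, so reads of the overlap may be assigned to either or to neither. Parp12 (chr6:39086410-39118349), which modifies proteins of the Golgi, had 8.60 to 13.7 CPM in WT (median 11.7), 10.3 to 14.2 CPM in Dp16 (median 11.5), and 14.1, 15.9, 13.7, 14.3 and 12.3 CPM in Dp16_2xIFNRs. The Dp16_2xIFNRs mice were all above the WT mean, and the log2 fold changes were 0.04 ± 0.10 in Dp16 (adjusted p = 0.926), 0.27 ± 0.11 in Dp16_2xIFNRs (adjusted p = 0.207) and 0.23 ± 0.11 between the mutant groups (adjusted p = 0.467). Parp14 had log2 fold changes of 0.30 and 0.43 against WT.

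Mx1 and Mx2 encode GTPases that trap viral components, and they are the 2 genes of the 48 that lie in the duplicated segment. Laboratory strains such as C57BL/6 are known to carry disrupted alleles of both, and GENCODE labels Mx2 a polymorphic pseudogene. Mx2 (chr16:97535308-97560900) had 0.463 to 1.03 CPM in WT (median 0.694), 0.857 to 2.42 CPM in Dp16 (median 1.12), and 1.75, 1.86, 1.97, 1.30 and 1.22 CPM in Dp16_2xIFNRs. All Dp16_2xIFNRs mice were above every WT mouse, and all 6 Dp16 mice were above the WT mean of 0.727 CPM. On the log2 scale, Mx2 had a fold change of 1.13 ± 0.27 in Dp16_2xIFNRs against WT (edgeR adjusted p = 0.0476), 0.81 ± 0.26 in Dp16 (adjusted p = 0.278) and 0.33 ± 0.25 between the mutant groups (adjusted p = 0.639).

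The call of Mx2 was a narrow one. Its adjusted p in Dp16_2xIFNRs against WT ranged from 0.00636 to 0.194 over the alternatives and the omissions of 1 library, and it was over 0.05 in 17 of them at a log2 fold change of 0.36 to 1.25 over all. It was lost with the replicate number as a block (0.0876) and without the 3 libraries low in choroid plexus markers (0.0625). Among the omissions of 1 library it held without Dp16 replicates 2, 3 or 6, Dp16_2xIFNRs replicates 1 or 5, or WT replicate 4, and was lost without any other, at most 0.194 without Dp16_2xIFNRs replicate 3.

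Mx1 (chr16:97447035-97462907) was scarce, with 0 to 0.438 CPM in WT (median 0.172), 0.344 to 1.26 CPM in Dp16 (median 0.487), and 0.550, 1.23, 0.825, 0.127 and 0.802 CPM in Dp16_2xIFNRs. Counts per library were 0 to 14 in WT, 11 to 40 in Dp16 and 4 to 39 in Dp16_2xIFNRs. All 6 Dp16 mice and 4 of 5 Dp16_2xIFNRs mice were above the WT mean, and both groups overlapped WT. The log2 fold change was 1.53 ± 0.52 in Dp16 (edgeR adjusted p = 0.315) and 1.72 ± 0.53 in Dp16_2xIFNRs (adjusted p = 0.12).

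An extra copy alone gives a ratio of 1.5, or 0.585 on the log2 scale, and both genes were set against it. The log2 fold change of Mx1 exceeded that value by 0.96 ± 0.52 in Dp16 (edgeR adjusted p = 0.0945) and by 1.14 ± 0.53 in Dp16_2xIFNRs (edgeR adjusted p = 0.0592). That of Mx2 exceeded it by 0.22 ± 0.26 (edgeR adjusted p = 0.415) and by 0.55 ± 0.27 (edgeR adjusted p = 0.0677). No departure passed the adjusted test. That adjustment ran over all tested genes, each set against the same ratio of 1.5, and not over genes with an extra copy. Before adjustment the edgeR p was 0.0818 in Dp16 and 0.0458 in Dp16_2xIFNRs for Mx1. For Mx2 it was 0.396 and 0.0528. The p of 0.0458 rose over 0.05 in 9 of 17 omissions of 1 library. Without Dp16 replicate 2 the departure of Mx2 in Dp16 was -0.04. Without Mx1 and Mx2 the median log2 fold changes of the other 45 genes were 0.25 in Dp16 and 0.29 in Dp16_2xIFNRs against WT, and -0.02 between the mutant groups.

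**Figure D5:**
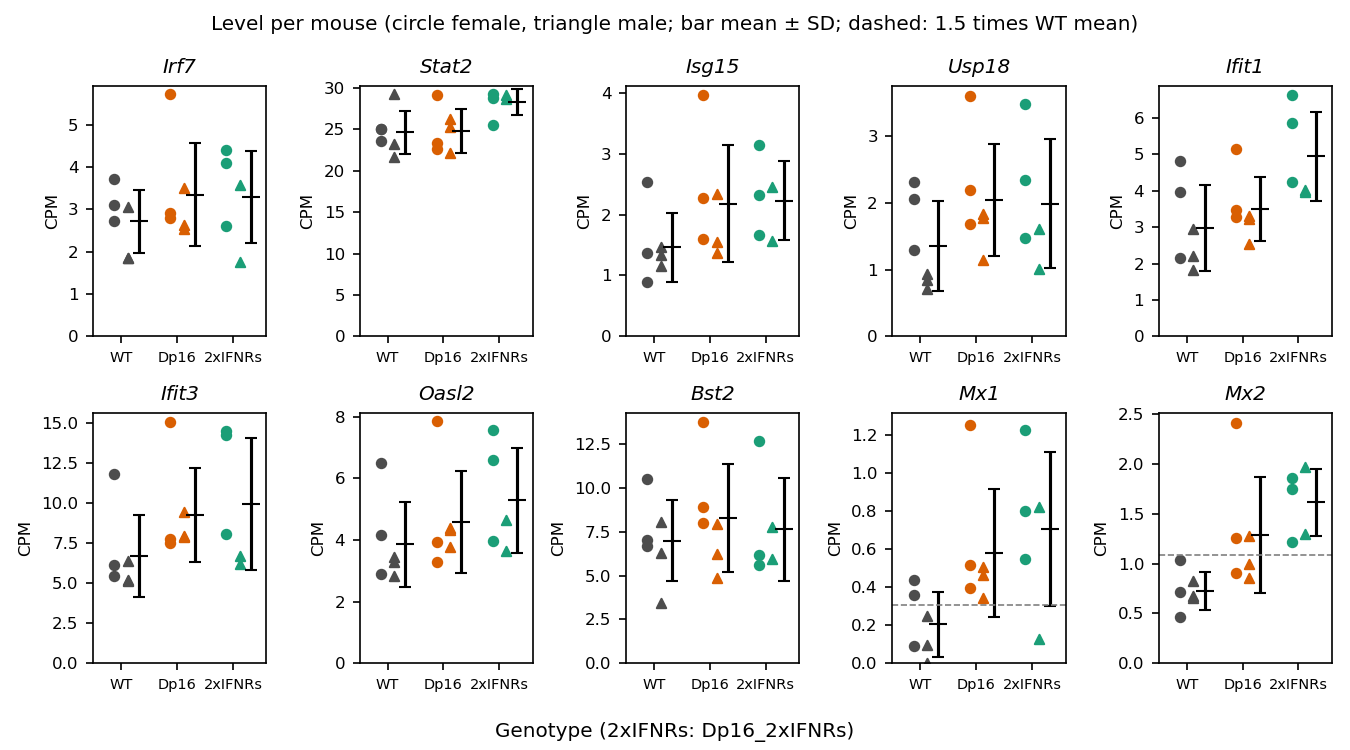
CPM (vertical axes, from 0) of 10 interferon-stimulated genes in each mouse by genotype (horizontal axes); circles are females, triangles males, bars show the mean ± SD over mice, and the dashed line for Mx1 and Mx2 is 1.5 times the WT mean. All Dp16_2xIFNRs mice lie above every WT mouse for Mx2, and single high mice stand out in each group for Ifit3 and Oasl2.

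Females had higher levels than males, a comparison added after the values had been seen. In the same fit, which holds genotype, 45 of 47 genes were higher in the 9 females than in the 8 males (49.3% of all tested genes were), with a median log2 difference of 0.26 against -0.00 over all genes. At an unadjusted p under 0.05, 17 of 47 (36.2%) were higher in females and 0 lower, where 1.65% of all tested genes were higher. edgeR called 0 of them, with a smallest adjusted p of 0.403, and DESeq2 called 1. Usp18 had the lowest p, with means of 2.28 CPM in females and 1.23 CPM in males and a log2 difference of 0.90. Ifi27l2a (1.82 and 0.890 CPM) and Ifit1 (4.40 and 3.01 CPM) followed. The count of 17 was 7 without Dp16 replicate 2, 8 without WT replicate 3, 10 without WT replicate 6 or without Dp16_2xIFNRs replicate 4, 7 without the 3 libraries low in choroid plexus markers, and 5 with the replicate number as a block. That block leaves little for the sex comparison, since females and males share a replicate number only at numbers 3 and 5.

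The fold changes between genotypes were alike in both sexes within the error. The median over the 47 genes, in Dp16 against WT, was 0.29 in females and 0.34 in males, for Dp16_2xIFNRs against WT 0.32 in both, and between the mutant groups -0.02 and 0.04. The interaction of genotype and sex was called for 0 genes, and 0 of 47 had an unadjusted p under 0.05 in any comparison (2.73% to 2.98% of all tested genes did). With 2 or 3 mice per sex and group such a test resolves only large differences.

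Upstream of these genes, the receptor chains followed their copy number. Ifnar1 had means of 41.3 CPM in WT, 64.6 in Dp16 and 46.2 in Dp16_2xIFNRs, and Ifnar2 had 17.9, 27.3 and 17.7 CPM. Ifngr2, which encodes part of the type II interferon receptor, had 52.5, 82.6 and 51.7 CPM, and Il10rb, shared by lambda interferon and interleukin receptors, had 8.10, 11.7 and 7.98 CPM. All 4 were called higher in Dp16 than in WT (edgeR adjusted p = 8.81e-07, 0.000153, 3.88e-06 and 0.0146), with log2 fold changes of 0.65, 0.61, 0.65 and 0.54. Against WT, 0 of the 6 receptor genes were called in Dp16_2xIFNRs. In Dp16_2xIFNRs against Dp16, Ifnar1, Ifnar2 and Ifngr2 fell, with log2 fold changes of -0.49, -0.63 and -0.68, while Il10rb had -0.56 (adjusted p = 0.277). Ifngr1 and Ifnlr1, which lie elsewhere, had log2 fold changes of 0.09 and 0.35 in Dp16 against WT and were not called.

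Of 12 tested genes that induce interferon, such as sensors, adaptors and kinases, 0 were called, with medians of -0.01 in Dp16 and 0.11 in Dp16_2xIFNRs against WT. Of 12 brakes on the pathway, 0 were called, with medians of -0.07 and -0.01. The interferons themselves were nearly absent: 11 of 16 listed interferon genes had no count in any library, and all 16 had 8 counts over the 17 libraries, 4 of them of Ifng in 1 library.

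Another 42 interferon-stimulated genes, 36 of them tested, had medians of 0.13 in Dp16 and 0.20 in Dp16_2xIFNRs against WT and of 0.03 between the mutant groups. Of these 36, 26 and 27 had a fold change above 0 against WT. Trim34a, an antiviral tripartite motif gene, was the one called, in Dp16_2xIFNRs against WT, with means of 2.17, 2.81 and 3.27 CPM and a log2 ratio of 0.58 ± 0.14 (edgeR adjusted p = 0.0499, where 0.637% of all tested genes were called higher). The call was lost without any 1 library other than WT replicate 4 or Dp16 replicate 1, with the replicate block (adjusted p = 0.105) and without the 3 libraries low in choroid plexus markers (adjusted p = 0.184), and DESeq2 kept it (adjusted p = 0.0105).

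The cell types that express these genes were followed by their own markers. In bulk tissue, fewer cells of a type and less RNA per cell cannot be told apart. The 10 microglia markers summed to 420 to 530 CPM in WT, 418 to 494 CPM in Dp16 and 401 to 484 CPM in Dp16_2xIFNRs, with 0 called. The 8 endothelium markers summed to 300.5 to 358 CPM, 283 to 352 CPM and 307 to 344 CPM, with 0 called. In Dp16_2xIFNRs against WT, 0 of the 10 microglia markers had a fold change above 0 (median -0.06). A fold change above 0 was found there for 3 of the 8 endothelium markers (median -0.03) and 2 of the 10 choroid plexus markers (median -0.19). In Dp16 against WT, 0 of the 10 choroid plexus markers were above 0 (median -0.41). The Dp16 medians were -0.03 for microglia and -0.02 for endothelium. Most markers of meningeal fibroblasts, border macrophages and peripheral leukocytes ran higher in Dp16_2xIFNRs than in WT. The 7 meningeal fibroblast markers summed to 89.7 to 128 CPM in WT, 83.7 to 150.1 CPM in Dp16 and 105 to 170 CPM in Dp16_2xIFNRs. All 7 had a fold change above 0 in Dp16_2xIFNRs against WT, with a median of 0.59, and 5 did in Dp16, with a median of 0.23. The 7 border macrophage markers, 6 of them tested, summed to 8.24 to 12.1 CPM, 9.11 to 15.3 CPM and 12.1 to 18.1 CPM, with a median of 0.38 in Dp16_2xIFNRs against WT. Of the 6 tested, 5 were above 0 in Dp16_2xIFNRs (lowest -0.26) and 3 in Dp16 (median -0.02). The 10 leukocyte markers, 4 of them tested, summed to 1.58 to 2.94 CPM, 1.59 to 3.14 CPM and 2.46 to 3.27 CPM. Of the 4 tested, 3 were above 0 against WT in each mutant group, with medians of 0.52 in Dp16 and 0.70 in Dp16_2xIFNRs. None of these lists had a called gene, no marker listed was at 0 in all libraries, and their part in the levels of the interferon-stimulated genes was not tested.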

How the data were processed

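Libraries of poly-A RNA from 17 hippocampi were made with a strand-specific kit, per the labels' protocols. The submitters' processing notes name bcl2fastq, FastQC 0.11.5, HISAT2 2.1.0, SAMtools 1.5, HTSeq 0.6.1 and the build GRCm38. How the counting treated strand, and which length entered RPKM, are not given in the sources used here, so reads of overlapping genes may be misassigned. The authors deposited raw counts per gene and RPKM per gene for each mouse. Library totals of 30.4 to 33.1 M counts set the counting error. The error given beside a log2 fold change is the SE of the edgeR fit, and that beside the level per mouse is the SD between mice.

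The counts were tested with edgeR 4.0.16 in R 4.3.3 (quasi-likelihood test, trimmed mean scaling, genotype and sex in the model, all 17 libraries, 13 residual degrees of freedom). The low-count filter was filterByExpr (minimum count 10), and 18983 genes passed it. The p-values were adjusted by Benjamini-Hochberg over all tested genes, with a threshold of 0.05. A prior count of 2 was added for log2 CPM. The deposited RPKM values were used for levels between genes and in limma 3.58.1. Other alternatives were DESeq2 1.42.0, other scalings, filters and covariates, and each library left out. The scripts were tested on simulated data.

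Gene positions come from GENCODE on GRCm38 and promoters from RefSeq. Levels by mouse were given for Irf7, Irf9, Stat2, Ifit1, Ifit3, Isg15, Usp18, Oasl2, Bst2, Ifitm3, Mx1 and Mx2, and for each other member that was called or was among the 6 lowest unadjusted p-values of a comparison. Members, lists and rules were chosen with earlier results of these data known. One gene of the pathway is not reported here.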

Additional observations from a re-analysis of the deposited data

Results flagged for a closer look

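Single mice that stood far from the rest of their group were searched by the gap to the nearest mouse relative to the range of the group. The sets of values were each of the 47 tested genes, and the mean over them, in each genotype. Of these 144 sets, 14 had such a mouse, all of them sets of single genes. A rate of 5% would flag 7.2 sets by chance. The genes covary between mice, so the sets are not independent and these counts give no test of an excess. WT replicate 3 and Dp16 replicate 2, both females, accounted for 5 each.

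In WT replicate 3, Ifit3 was at 11.8 CPM (5.13 to 6.37 in the other WT mice) and Ifit3b at 6.33 CPM (3.42 to 4.24). Oas1a was at 0.877 CPM (0.463 to 0.590), Ddx58 at 6.39 CPM (4.60 to 5.18) and Rtp4 at 3.76 CPM (1.89 to 2.25). In Dp16 replicate 2, Ifit3 was at 15.1 CPM (7.5 to 9.43 in the other Dp16 mice), Oasl2 at 7.85 CPM (3.27 to 4.38) and Oasl1 at 0.722 CPM (0.259 to 0.367). The same mouse had 8.57 CPM of Dtx3l (6.90 to 7.39) and 1.26 CPM of Mx1 (0.344 to 0.518).

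The other 4 were low values. Stat2 was at 25.5 CPM in Dp16_2xIFNRs replicate 1 (28.7 to 29.3 in the others), and Trim30a was at 2.92 CPM in Dp16_2xIFNRs replicate 4 (4.00 to 4.49). Oas1b was at 0.156 CPM in Dp16 replicate 5 (0.404 to 0.571), and Samd9l was at 3.84 CPM in Dp16 replicate 6 (5.69 to 6.67).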

How the results depend on the processing

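The median log2 fold change of the 47 genes stayed above 0 against WT under each alternative run, at 0.124 to 0.286 in Dp16 (0.171 to 0.354 with 1 library left out) and 0.161 to 0.362 in Dp16_2xIFNRs (0.255 to 0.368). Between the mutant groups it lay from -0.0485 to 0.148 (-0.0788 to 0.107 with 1 library left out). For females against males it lay from 0.113 to 0.261 (0.217 to 0.291), and the median r between genes lay from 0.25 to 0.338 with 1 library left out. Where a value moved, the cause was not tested.

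The number called in Dp16_2xIFNRs against WT, 1, was 4 with DESeq2, without a filter on low counts or at an adjusted p under 0.1. It was 2 with a filter of 1 CPM in 5 libraries or no covariate, 3 with the choroid plexus level added, 0 with the identifier series, with log2(RPKM + 1) or without the 3 libraries low in choroid plexus markers, and 0 to 2 with 1 library left out. DESeq2 called 1 gene between the sexes. The count at an unadjusted p under 0.05 in Dp16 against WT, 16, was 10 with no covariate, with age or with either RPKM pseudocount, 4 with the identifier series, and 5 to 19 with 1 library left out. In Dp16_2xIFNRs against WT, 13 became 21 without a filter, 6 without the 3 libraries, and 8 to 20. Between the mutant groups, 3 higher and 0 lower became 1 and 1 without the 3 libraries, and 0 to 4 higher and 0 to 1 lower. Between the sexes, 17 became 7 without the 3 libraries and 7 to 22 with 1 library left out.

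Whether the replicate numbers pair the mice was not tested. The mean r of same-numbered mice was 0.0772 (n = 16, -0.216 to 0.471), against -0.0141 (n = 80, -0.42 to 0.515) for other numbers. With the replicate number as a block, 0 genes were called in Dp16_2xIFNRs against WT, 5 genes were higher in females at an unadjusted p under 0.05, and the departure of Mx1 from the copy ratio in Dp16 was 1.04, past the unadjusted threshold. Females and males share a replicate number only at numbers 3 and 5, so the count of 5 rests on little information about sex. Apart from replicate numbers, 5 pairs of mice of the same sex and different genotype share the second part of their identifier, whose meaning the labels do not give. The mean r of these pairs was 0.0125 (n = 5, -0.223 to 0.301), and with the shared identifier as a random effect in limma-voom, chosen after seeing the data, 0 genes were called in Dp16_2xIFNRs against WT (Mx2 adjusted p = 0.051). Bst2 turned to -0.0277 in Dp16_2xIFNRs against WT and Isg15 to -0.00868 between the mutant groups under the replicate block.

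Other values changed sign. Between the mutant groups, Ifit3 was at -0.00462 without a filter, -0.00346 with the choroid plexus level, -0.000632 with only the compared groups and -0.0412 without the 3 libraries, and Parp9 was at 0.0119 with no covariate, 0.00124 with log2(RPKM + 0.1) and 0.00265 with log2(RPKM + 1). With the identifier series, Parp12 was at -0.0122 in Dp16, and Irf7 and Usp18 were at 0.076 and 0.0448 between the mutant groups. Without the 3 libraries, Irf9 and Stat2 were at -0.0283 and -0.0465 in Dp16, Herc6 at -0.0119 in Dp16_2xIFNRs against WT, and Isg15 and Ifitm3 at -0.165 and -0.0397 between the mutant groups. Stat2 in Dp16 was at -0.0093 and -0.00819 on the RPKM scales.

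With 1 library left out, these values between the mutant groups spanned 0: Bst2 -0.328 to 0.0207, Ifit3 -0.113 to 0.147, Ifitm3 -0.0303 to 0.228, Irf7 -0.229 to 0.105, Isg15 -0.114 to 0.239, Mx1 -0.191 to 0.46 and Parp9 -0.098 to 0.0531. Against WT, Irf9 spanned -0.0531 to 0.149, Parp12 -0.024 to 0.103 and Stat2 -0.0496 to 0.0667 in Dp16, and Bst2 -0.0988 to 0.216 in Dp16_2xIFNRs. The departures from the copy ratio spanned 0.686 to 1.22 (Mx1) and -0.0391 to 0.336 (Mx2) in Dp16, and 0.801 to 1.41 and 0.403 to 0.664 in Dp16_2xIFNRs. Genes under about 1 CPM, such as Mx1 and Oasl1, rest on few counts per library.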

Other observations

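Over the 17 mice, with genotype and sex removed, the 18765 other genes at or above the level of the lowest of these genes were ordered by their r with the mean of the 47 interferon-stimulated genes, a step chosen after seeing the data. Gbp2, an interferon-inducible GTPase, had an r of 0.87 and Iigp1, another, an r of 0.86. Zranb1 (0.88) and Slurp1 (0.87) stood above them. None of these 4 is in the lists of interferon-stimulated genes used here, and Gbp2 and Iigp1 were named after their values were seen. Of the 20 genes with the highest r, 1 is in those lists, Trim12c (0.79). Among so many genes the highest values of r are a description of these libraries and carry no test.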
